A study of Homo sapiens with 2 samples.

Results

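The interactions described here are those of SOX4 and of CDKAL1, the gene upstream of it on chromosome 6, together with those of 4 other SOX genes, SOX5, SOX6, SOX11 and SOX12. An interaction was taken for a gene when either of its 5-kb bins overlapped the gene body or the 10 kb around it. This rule found 73 of the 49245 interactions of the list (0.148%), of which 49 belonged to CDKAL1, 14 to SOX4, 8 to SOX12, 4 to SOX6, 3 to SOX5 and 0 to SOX11, with 5 shared by SOX4 and CDKAL1. The 5 shared interactions all joined a bin at the start of SOX4 to introns of CDKAL1 that lay 575 to 750 kb away.

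The interactions come from HiChIP, which combines chromatin immunoprecipitation with proximity ligation, in HAL-01, a B cell leukemia line that carries t(17;19) and with it the fusion TCF3::HLF. The cells stably expressed Cas9GFP and their wild-type TCF3 had been knocked out, so that the antibody against E2A (the TCF3 protein) could precipitate the fusion without wild-type TCF3. The design held this single condition, with 2 biological replicates that the authors merged into 1 list, and no untreated or fusion-negative sample. Every value below is therefore 1 value from 1 cell line, without replicate error and without a test between conditions.

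SOX proteins are transcription factors with an HMG box similar to that of SRY. SOX4, SOX11 and SOX12 form the SoxC group, and SOX4 is required for the early steps of B cell development, whereas SOX5 and SOX6 belong to the SoxD group and are known for their roles in cartilage, neural and red cell development. CDKAL1 encodes an enzyme that modifies transfer RNA, and variation in its introns has been associated with type 2 diabetes. CASC15 is a long noncoding RNA gene on the other side of SOX4. TCF3::HLF binds DNA through the bZIP domain of HLF, and the HLF motif was searched here as the exact letters TTACGTAA or TTATGTAA on either strand.

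The start of SOX4 lay in the bin chr6:21590001-21595000 (hg38). This bin held 2 exact HLF motifs, both in an intron of the lncRNA gene ENSG00000283480 and upstream of exon 1 of SOX4. Each is shown with the bases around it, 5′ to 3′ on the strand of the motif, with the motif in capitals.
SOX4 start bin, chr6:21591502-21591531, plus strand: ttttaaaaaaaTTATGTAAtacaagtagct
SOX4 start bin, chr6:21592330-21592359, minus strand: agaatagccacTTATGTAAaaaagtaataa

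Of the 5 CDKAL1 bins that SOX4 reached, those in intron 8, intron 11 and the bin from 20875001 in intron 9 each held 1 exact motif, and the other 2 bins in intron 9 held none. The 3 sites are shown because they stand opposite the motifs of the SOX4 start bin in the same interactions.
CDKAL1 intron 8, chr6:20843575-20843604, minus strand: tttttaaaataTTATGTAAattaccttcaa
CDKAL1 intron 9, chr6:20879415-20879444, plus strand: tctcccgcctgTTATGTAAtagtcacttca
CDKAL1 intron 11, chr6:21019570-21019599, minus strand: tgacaaaggtaTTATGTAAatttcatatat

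Other sites are shown for some of the bins that had many interactions themselves. They are a bin in CDKAL1 intron 13, a bin between CDKAL1 and SOX4, and a bin in intron 7 of CASC15. The bin from 21705001 in intron 2 of CASC15, with 6 interactions and 2 exact motifs, is not shown.
CDKAL1 intron 13, chr6:21191398-21191427, plus strand: cagctagctgaTTATGTAActtactgaaaa
between CDKAL1 and SOX4, chr6:21439103-21439132, plus strand: aggtactaacgTTATGTAAagtgatgtggt
CASC15 intron 7, chr6:22154775-22154804, plus strand: aggttgtcctcTTATGTAAgcgcccatgag

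These sites have the form with T at the fourth base of the motif. The form with C at that base was found at 2 of the 36 motif sites in the bins of the 6 genes, in intron 7 and intron 8 of CDKAL1. This form was in 2.41% of the bins of the 6 genes, close to the 2.32% of all bins in listed interactions. The 2 bins of CDKAL1 that held it had interactions within CDKAL1 alone.
CDKAL1 intron 7, chr6:20777634-20777663, plus strand: aaaacatacaaTTACGTAAaaaacaataat
CDKAL1 intron 8, chr6:20828692-20828721, plus strand: taaactaaacaTTACGTAAagttgaccttt

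For each interaction the list gives a contact count, which is the number of read pairs that join its 2 bins. The contact counts of all listed interactions added up to 1268490, with a median of 24 (range, 7 to 615), and those of the 6 genes added up to 1839, with a median of 24 (range, 13 to 47). A contact count is given below with its exact Poisson 95% interval where it stands for a single interaction. The interval covers counting error only and is a lower limit of the error, because copies of a read pair had not been removed. Contact counts depend on distance, so each was also divided by the median of all listed interactions at the same distance, and this ratio is called the ratio to distance. The list holds only interactions that passed the caller's q-value of 0.01, so a gene without an interaction had none that passed, and its contacts below that threshold were not analysed here.

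Relative to their distance, the interactions of the 6 genes were like those of the whole list. Their median ratio to distance was 1.0 (range, 0.58 to 1.96), and 33 of 73 (45.2%) lay above the median at their distance, against 47.6% of all listed interactions. They were longer than the list as a whole, with a median distance of 435 kb against 255 kb, and 13 of 73 (17.8%) spanned more than 1 Mb, against 13.7%. Nearby significant bin pairs had been merged into 1 interaction by the caller, and 70 of the 73 (95.9%) were single bin pairs, against 92.3%.

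**Figure D1:**
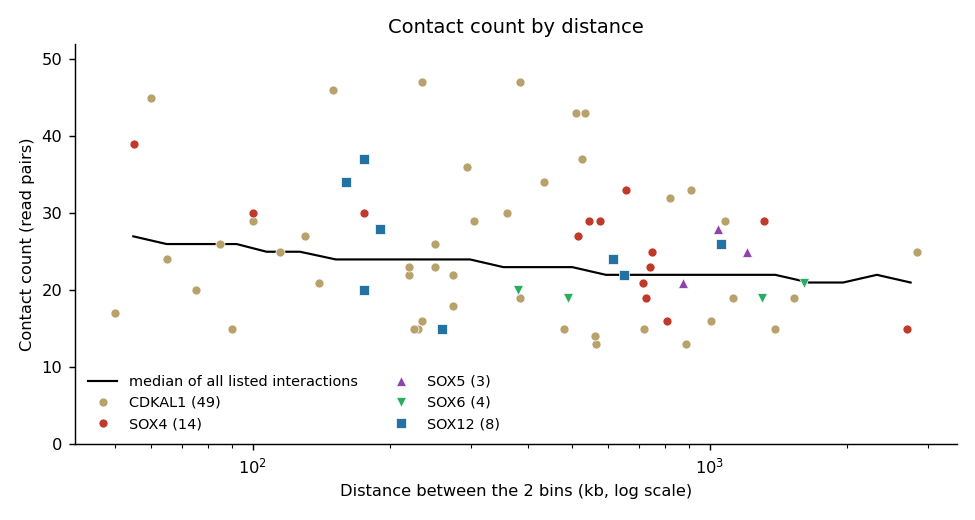
Contact count (read pairs) of each interaction of CDKAL1, SOX4, SOX5, SOX6 and SOX12 against the distance between its 2 bins (kb, log axis), with the number of interactions in parentheses and the 5 interactions shared by SOX4 and CDKAL1 drawn as SOX4; the line is the median of all listed interactions. The points lie on both sides of the line, and the highest, with a contact count of 47, belong to CDKAL1.

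SOX4 (ENSG00000124766.7) is a gene of a single exon at chr6:21593751-21598619 on the plus strand. Its 14 interactions placed it at rank 1095 of 19970 protein-coding genes outside chromosome Y. Of these genes, 64.5% had at least 1 interaction and 6.07% had 14 or more. Per 100 kb of gene and flanks SOX4 had 56.3 interactions, rank 69 of the same genes. On this scale a short gene reaches a high value from few bins, and 2 bins held all the interactions of SOX4.

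Of the 14 interactions, 12 used the bin that holds the annotated start of SOX4. Bins with the annotated start of a protein-coding gene were an anchor, that is, one of the 2 bins of a listed interaction, in 12.8% of 52757 cases, and the 6764 that were had a median of 1 interaction. With 12 interactions the SOX4 start bin had rank 69 among them, and 92 such bins had as many or more. The bin also lies in ENSG00000283480, and interactions of the 2 genes cannot be told apart within it.

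The start bin reached upstream 5 times and downstream 7 times, with summed contact counts of 117 and 189. All 5 upstream bins lay in CDKAL1, and none lay in the 361 kb between the end of CDKAL1 and the start of SOX4. The nearest of them ended 573 kb before the start of SOX4.

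The highest contact count of an interaction with CDKAL1 was 29 (19.4 to 41.6), for the bin from 21015001 in intron 11 at 575 kb. Its ratio to distance was 1.21 and it ranked 38 of 120 interactions of that length. The bin from 20840001 in intron 8, at 750 kb, had 25 (16.2 to 36.9), a ratio of 1.0. These intervals overlap, and neither count stood out from interactions of the same length.

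The other 3 bins lay within 30 kb of each other in intron 9. The bin from 20850001, at 740 kb, reached a contact count of 23 (14.6 to 34.5), 1.02 times the median at its distance. The bin from 20865001, at 725 kb, had 19 (11.4 to 29.7), a ratio of 0.83, and the highest q-value of the 5 interactions, 5.08e-06. The bin from 20875001, at 715 kb, had 21 (13.0 to 32.1), a ratio of 0.95, and was the only one of the 5 that stood for a merged group, over which the contact counts summed to 40. The q-values of the 5 interactions went down to 1.10e-12, for intron 11.

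A pair of these CDKAL1 bins was also joined to each other. The bin from 20875001 in intron 9 and the bin from 21015001 in intron 11 shared an interaction with a contact count of 21 (13.0 to 32.1), so that these bins and the SOX4 start bin formed a closed triangle. It was the only closed triangle among the interactions of the 6 genes. The bin in intron 8 had 1 further interaction, with the bin from 20545001 that holds exons 3 and 4 of CDKAL1, and its contact count of 36 (25.2 to 49.8) was 1.53 times the median at its distance.

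**Figure D2:**
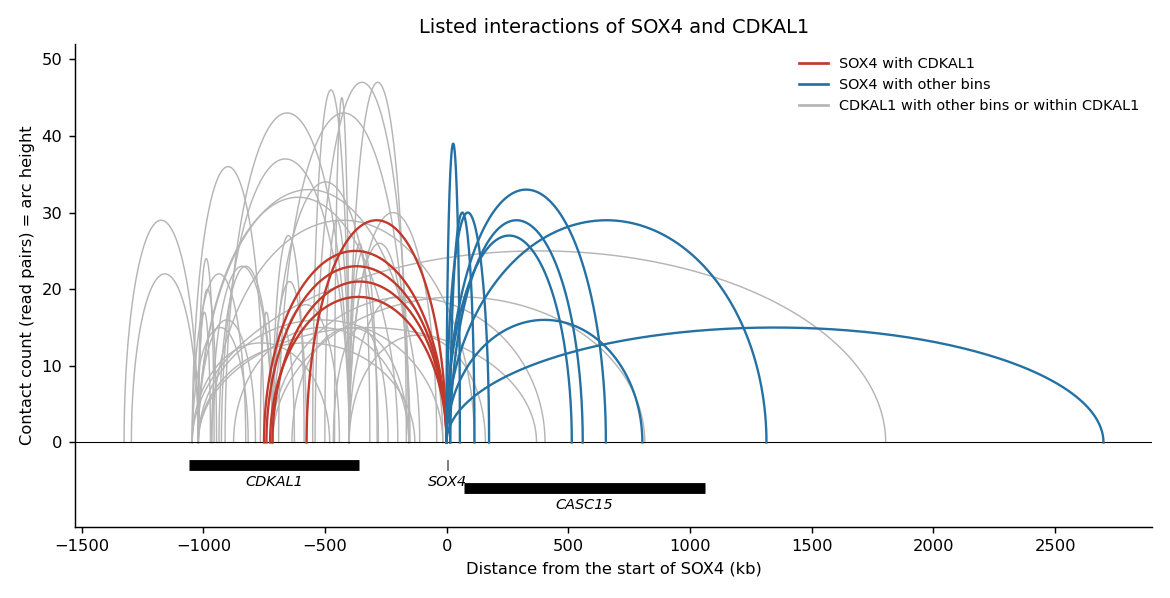
Listed interactions of SOX4 and CDKAL1 as arcs between bin centres, with distance from the start of SOX4 (kb) on the x axis and the contact count (read pairs) as arc height. The 5 interactions between SOX4 and CDKAL1 (red) reach contact counts of 19 to 29, and the other SOX4 interactions (blue) all run downstream.

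Downstream, the start bin contacted bins from 55 to 2700 kb away. The nearest, from 21645001 and outside annotated genes, had the highest contact count of SOX4, 39 (27.7 to 53.3), which was 1.5 times the median at 55 kb and ranked 183 of 1188. The bin from 22245001 in CASC15, at 655 kb, had 33 (22.7 to 46.3), also 1.5 times the median, and ranked 9 of 97. The bin from 22905001 in the lncRNA gene ENSG00000233358, at 1315 kb, had 29 (19.4 to 41.6), 1.41 times the median, and ranked 5 of 26. These 3 were the interactions of the start bin with the highest ratios to distance, and all exceeded those with CDKAL1, although the Poisson intervals overlap.

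The other downstream partners included 3 more bins of CASC15. The bin from 21765001, at 175 kb, reached 30 (20.2 to 42.8) and a ratio of 1.22, and the bin from 22105001, at 515 kb, had 27 (17.8 to 39.3) and a ratio of 1.17. The bin from 22395001, at 805 kb, had 16 (9.15 to 26.0) and a ratio of 0.76. The farthest partner, from 24290001 in DCDC2, at 2700 kb, had 15 (8.40 to 24.7), a ratio of 0.64, and ranked 7 of 8 interactions of that length.

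The other 2 interactions of SOX4 used the bin from 21605001, which lies past the end of the gene and within the 10 kb around it. It reached the CASC15 bins from 21705001, with 30 (20.2 to 42.8), and from 22150001, with 29 (19.4 to 41.6), at ratios of 1.2 and 1.32. These CASC15 bins had 6 interactions each, whereas the downstream partners of the start bin had 1 each. In all, 6 of the 14 SOX4 interactions and 5 of the 49 CDKAL1 interactions had their other bin in CASC15.

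**Figure D3:**
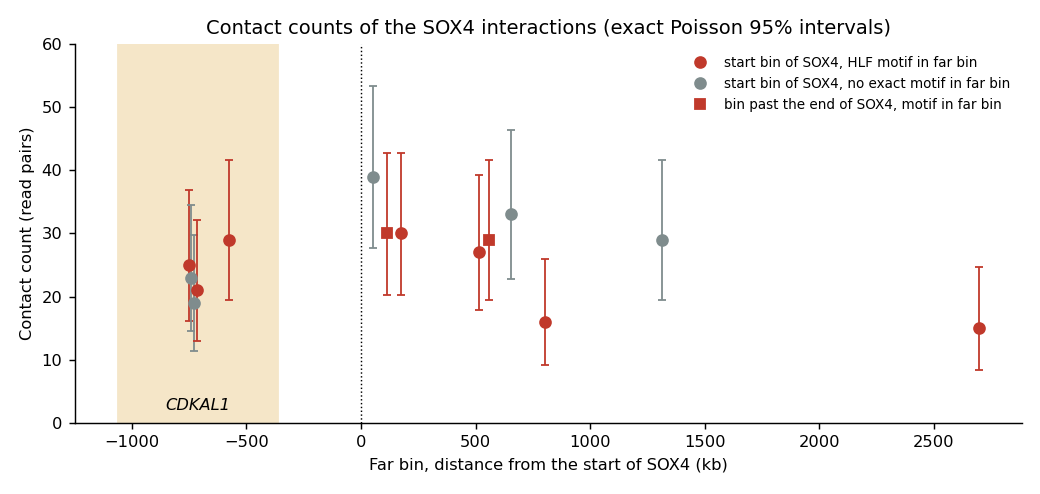
Contact count (read pairs, with exact Poisson 95% intervals) of the 14 SOX4 interactions against the distance of the far bin from the start of SOX4 (kb), with the position of CDKAL1 shaded; circles use the start bin, squares the bin past the end of the gene, and red marks far bins with an exact HLF motif. The counts run from 15 to 39 with broadly overlapping intervals, and 9 of the 14 far bins hold a motif.

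The HLF motif was found in 9 of the 14 far bins of SOX4 (64.3%, Wilson 95% interval 38.8 to 83.7), against 31.5% of all 53535 anchor bins. The far bins had a median GC content of 37.8%, against 41.1% of all anchor bins, and the part of base composition in the share was not tested. Some of the far bins had 5 or more interactions, and 53.8% of all such bins of the list held the motif. Most of the far bins were also called against the same start bin, which the interval does not allow for. The share therefore cannot be read as a difference from the list. At least 1 of the 2 bins held the motif in all 14 interactions, against 66.8% of all listed interactions, but for 12 of them this follows from the motifs of the start bin that they share. Both bins held it in 7 of 14, all at the start bin. Because that bin holds the motif itself, this only restates that 7 of its 12 far bins held it. The 16.2% of the list with the motif in both bins has no such fixed bin and is not a like comparison. Among the interactions with CDKAL1, the bins of introns 8 and 11 and 1 of the 3 bins of intron 9 held it, and the contact counts of bins with the motif (21, 25 and 29) and without it (19 and 23) overlapped.

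The 2 motifs of the start bin lay upstream of the promoter of SOX4, which held none. The 250 bases before the start of SOX4 are shown because this bin carried most of the interactions of the gene (RefSeq, GRCh38.p14, plus strand). Capitals mark the CCAAT box, the recognition sequence of the factor NF-Y, on either strand (CCAAT or ATTGG).
SOX4 promoter, chr6:21593501-21593750: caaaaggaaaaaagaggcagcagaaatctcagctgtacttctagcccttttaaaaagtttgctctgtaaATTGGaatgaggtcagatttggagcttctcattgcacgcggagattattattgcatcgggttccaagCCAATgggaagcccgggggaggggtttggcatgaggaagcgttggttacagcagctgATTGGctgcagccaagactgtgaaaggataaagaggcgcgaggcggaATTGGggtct

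The 4 CCAAT boxes are a feature of few promoters. Of 35116 RefSeq promoters of 300 bases, each with 250 bases before and 50 after a start, 34.6% held at least 1 CCAAT box and 0.991% held 4 or more. The SOX4 promoter held neither the GC box GGGCGG, which 45.0% of promoters held, nor the E box CACCTG, which 20.6% held. An exact HLF motif was found in 1.01% of promoters. These are matches of letters, and no binding of any factor to them was measured here.

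CDKAL1 (ENSG00000145996.11), at chr6:20534457-21232404 on the plus strand, is 698 kb long. Its 49 interactions gave it rank 79 of 19970 protein-coding genes. A long gene meets more bins, and among the 322 protein-coding genes of at least 500 kb, which had a median of 8 interactions, CDKAL1 had rank 26. Per 100 kb it had 6.83 interactions, against a median of 1.13 for these long genes, again rank 26.

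The annotated starts of CDKAL1 took part in some of them. The bin with the canonical start had 0 interactions, and the bin from 20545001, which holds the start of another transcript beside exons 3 and 4, had 5. Of the 32 anchor bins inside CDKAL1, 29 lay in introns of the canonical transcript and 3 overlapped an exon. Counted within 10 kb of any annotated start of CDKAL1, 17 of the 49 interactions were found, the 5 of that bin and 12 of a bin in intron 13 that lies near the start of a short transcript at the end of the gene.

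Most of them met at 3 intronic bins, which together took part in 33 of the 49 interactions. The bin from 21190001 in intron 13 had 12 interactions, with contact counts of 14 to 47 that summed to 387. The bin from 20570001 in intron 4 had 11, with 13 to 33 and a sum of 237. The bin from 20875001 in intron 9 had 10, with 15 to 34 and a sum of 218, and it was the only one of the 3 that had an interaction with SOX4.

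The partners of these 3 bins lay in different places. Of the 10 interactions of the intron 9 bin, 7 stayed within CDKAL1, whereas the intron 13 bin had 5 within the gene and 6 with bins between CDKAL1 and SOX4. The intron 4 bin had 2 with bins before CDKAL1, 4 within it, 4 with bins between the genes and 1 beyond SOX4. The bins of introns 9 and 13 held an exact HLF motif each and the bin of intron 4 held none.

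**Figure D4:**
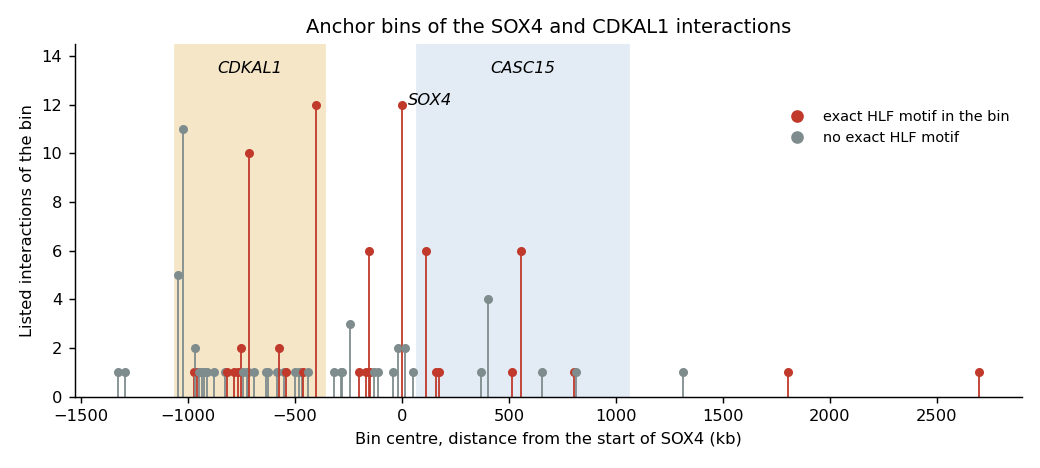
Number of listed interactions of each anchor bin of SOX4 and CDKAL1 against its distance from the start of SOX4 (kb), with CDKAL1 and CASC15 shaded and bins with an exact HLF motif in red. The SOX4 start bin (12) and the CDKAL1 bins in introns 13 (12), 4 (11) and 9 (10) stand above the others, of which none has more than 6.

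Across the gene, 20 of the 49 interactions had both bins in CDKAL1, with contact counts of 13 to 46 (median, 22.5). Another 16 reached 12 bins between CDKAL1 and SOX4, with 13 to 47, 5 reached the SOX4 start bin, 6 reached bins beyond SOX4, with 14 to 29, and 2 reached bins before CDKAL1, with 22 and 29. The 361 kb between the 2 genes held 17 anchor bins with 22 interactions, of which 16 were with CDKAL1 and 0 with SOX4. The interactions of SOX4 with CDKAL1 thus passed over a stretch that had none with SOX4 itself.

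Just outside the 10 kb around SOX4, 3 more interactions of CDKAL1 ended within 50 kb of it. The intron 13 bin reached the bins from 21550001, with 30 (20.2 to 42.8) at 360 kb, and from 21575001, with 19 (11.4 to 29.7) at 385 kb. The intron 4 bin reached the bin from 21575001 as well, with 16 (9.15 to 26.0) at 1005 kb. The contact counts of 30 and 16 lie just above and just below the range of the 5 interactions inside the limit (19 to 29), and 19 lies at its edge.

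The 5 highest ratios to distance, from 1.87 to 1.96, all belonged to interactions of CDKAL1. The bin from 21050001 in intron 11 and the bin from 21435001, between the genes, had a contact count of 47 (34.5 to 62.5) at 385 kb, 1.96 times the median and rank 4 of 200. The bins from 20680001 in intron 5 and from 21190001 in intron 13 had 43 (31.1 to 57.9) at 510 kb, 1.95 times the median and rank 4 of 149. The bins from 21040001 in intron 11 and from 21190001 had 46 (33.7 to 61.4) at 150 kb, 1.92 times the median, and their merged group summed to 103. None of these involved the SOX4 start bin, whose highest ratio was 1.5.

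The bin from 21435001 had 6 interactions, of which 4 were with CDKAL1. Besides the bin of intron 11 it reached the bin from 20900001 in intron 9, with 43 (31.1 to 57.9) at 535 kb, 1.87 times the median. The other 2 CDKAL1 bins, in intron 5 and at exon 10, had 15 (8.40 to 24.7) each, at ratios of 0.65 and 0.68. The interactions of this single bin thus covered much of the range seen for the gene.

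Over all interactions of CDKAL1, 19 of 49 lay above the median at their distance, with a median ratio of 0.96 (range, 0.58 to 1.96). For SOX4 it was 9 of 14, with a median of 1.19, and for all listed interactions 47.6%. The 5 interactions shared by SOX4 and CDKAL1 count for both genes, and 12 of the 14 of SOX4 used its start bin. The 2 genes are therefore not separate groups, and no test compared them. The exact HLF motif was in 11 of the 32 anchor bins inside CDKAL1 (34.4%, Wilson 95% interval 20.4 to 51.7) and in 8 of their 21 far bins (38.1%, 20.8 to 59.1), with intervals that include the 31.5% of all anchor bins. At least 1 bin held it in 38 of 49 interactions (77.6%, 64.1 to 87.0), against 66.8% of the list. These interactions are not separate units, because many share a bin. The bins from 20875001 and 21190001, which hold the motif, had 10 and 12 of them. The interval does not allow for this sharing, and the share cannot be read as a difference from the list.

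SOX12 (ENSG00000177732.9, chr20:325552-330224, plus strand), a SoxC gene like SOX4, had 8 interactions. All of them used 1 bin, from 335001 to 340000, which lies past the end of SOX12, 4.78 kb away, in the lncRNA gene NRSN2-AS1. The body of SOX12 and its start bin had 0 interactions, so the 8 are interactions of its neighborhood and not of its own start.

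The contact counts of this bin ran from 15 to 37, and 5 of the 8 lay above the median at their distance. The highest was 37 (26.1 to 51.0) with the bin from 160001 at 175 kb, 1.51 times the median and rank 38 of 464. The bin from 495001, which holds an annotated start of CSNK2A1, the gene of a catalytic subunit of casein kinase 2, had 34 (23.5 to 47.5) at 160 kb, 1.48 times the median. The other 2 bins in CSNK2A1, from 510001 and 525001, had 20 (12.2 to 30.9) and 28 (18.6 to 40.5).

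The remaining partners of the SOX12 bin were spread over a longer range. The bin from 985001 in RSPO4, which encodes an R-spondin that enhances WNT signaling, had 22 (13.8 to 33.3) at 650 kb, and the bins from 950001 and 1395001, outside annotated genes, had 24 (15.4 to 35.7) and 26 (17.0 to 38.1). The lowest was 15 (8.40 to 24.7), with the bin from 75001 at 260 kb, 0.65 times the median. None of the 9 bins held an exact HLF motif, and for the 8 far bins the Wilson 95% interval reached up to 32.4%, which includes the share of all anchor bins.

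SOX5 (ENSG00000134532.20, chr12:23529504-24562544, minus strand) is 1030 kb long and had 3 interactions. This was 0.285 per 100 kb and rank 246 of the 322 long genes by number. They used introns 1, 2 and 4, and none of its 11 bins with an annotated start was an anchor. Intron 4 and intron 1 reached the same bin, from 24795001 and outside annotated genes, with 28 (18.6 to 40.5) at 1045 kb and 21 (13.0 to 32.1) at 875 kb. Intron 2 reached a bin in ETNK1, the gene of an ethanolamine kinase, with 25 (16.2 to 36.9) at 1205 kb. The ratio to distance was 1.4 for intron 4, 1.05 for intron 1 and 1.0 for intron 2, and the bin of intron 4 was the only one of SOX5 with an exact HLF motif.

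SOX6 (ENSG00000110693.19, chr11:15966449-16739591, minus strand) is 773 kb long and had 4 interactions, or 0.504 per 100 kb, rank 226 of the 322 by number. None of its 13 bins with an annotated start was an anchor, and none of the 4 lay above the median at its distance. Intron 6 reached the bin with a start of ABCC8, the gene of the sulfonylurea receptor, with 19 (11.4 to 29.7) at 1305 kb. Intron 3 reached a bin in PSMA1, a proteasome subunit gene, with 21 (13.0 to 32.1) at 1610 kb, and both of these bins held an exact HLF motif.

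The other 2 SOX6 interactions reached the same bin in PIK3C2A, the gene of a lipid kinase. The bin from 16635001, where SOX6 and C11orf58 overlap, had 19 (11.4 to 29.7) at 490 kb, and the bin from 16745001, which lies outside SOX6 and holds a start of C11orf58, had 20 (12.2 to 30.9) at 380 kb. These 2 cannot be assigned to SOX6 rather than to C11orf58.

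SOX11 (ENSG00000176887.7, chr2:5692384-5701385, plus strand), the third SoxC gene, had 0 interactions. The nearest anchor bin lay 224 kb away, and a single interaction, between the bins from 5280001 and 6865001 with a contact count of 14, passed over the gene.

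Over the whole SOX family, 11 of 20 genes had at least 1 interaction. The share was 64.5% for the 19970 protein-coding genes, which leave out chromosome Y, whereas the 20 SOX genes include SRY. After SOX4 with 14 and SOX12 with 8 came SOX6 and SOX17, an endoderm and endothelial factor, with 4 each, and SOX5 and SOX13 with 3 each. SOX1, SOX3, SOX7, SOX9 and SOX10 had 1 each, and SOX2, SOX8, SOX11, SOX14, SOX15, SOX18, SOX21, SOX30 and SRY had 0, where SRY lies on the Y chromosome, for which the list holds no interaction. The bins that hold a start were anchors only in SOX4, with 12 interactions, and SOX17, with 3. Over the protein-coding genes outside chromosome Y, 12.8% of the bins with an annotated start were anchors. This is a share of bins and not of genes, so it is not a like comparison. SOX4 and SOX17 have 1 such bin each, whereas SOX5 has 11 and SOX6 has 13, none of them anchors. The SOX genes differ in length, and no test compared them.

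Taking the anchor bins of the 6 genes together, 28 of 83 held an exact HLF motif (33.7%, Wilson 95% interval 24.5 to 44.4), close to the 31.5% of the list. At least 1 bin held it in 50 of the 73 interactions (68.5%, 57.1 to 78.0), against 66.8%, but many of them share a bin, which this interval does not allow for. The share was higher in bins with many interactions, with 6 of the 11 bins with 5 or more (54.5%, 28.0 to 78.7), and it was 53.8% for all such bins of the list. The bins of SOX4 and CDKAL1 with 10 or more interactions thus included 3 with the motif and 1, in intron 4 of CDKAL1, without it.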

How the data were processed

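HiChIP libraries came from 2 replicates of HAL-01 cells with knockout of wild-type TCF3. The authors trimmed the reads with Trim Galore 0.6.6, merged the replicates, aligned to hg38 with BWA-MEM and omitted removal of copies. Interactions were called with FitHiChIP, whose version is not given in the sources used here, between 5-kb bins 50 kb to 3 Mb apart at a q-value under 0.01, with MACS2 peaks as reference. The contact counts deposited by the authors are raw numbers of read pairs. The deposited p-values and q-values come from the caller's model of distance and coverage, and the deposited fraction, which describes how dense a merged group is, entered no result.

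Gene bodies and starts came from GENCODE release 44 on hg38, with 0 bins past a chromosome end, and promoters from RefSeq. The members and lists were chosen with earlier results of these data known. Named genes were the members, the SOX family and genes at partner bins. Partner genes of SOX4 and CDKAL1 include noncoding ones. Shares have Wilson 95% intervals. The code was tested on simulated data. Alternatives were stricter q-values, a contact count of at least 20, other windows, distances up to 1 Mb, merged bin ranges, sumCC, distance matching within a chromosome and other motif definitions. Python 3.11.15, pandas 2.3.3, scipy 1.17.1, pyfaidx 0.9.0.4 and matplotlib 3.10.9 were used.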

Additional observations from a re-analysis of the deposited data

How the results depend on the processing

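No paired analysis was possible because the replicates were merged before interactions were called, and for the same reason neither replicate could be left out. With 10 kb around transcript starts in place of gene bodies, the interactions of the 6 genes fell from 73 to 38, those of CDKAL1 from 49 to 17 and those joining SOX4 and CDKAL1 from 5 to 0, because the CDKAL1 bins that SOX4 reached lie over 10 kb from any annotated start of CDKAL1. At these starts SOX5 had 0 and SOX6 had 1. Under the other alternatives the 6 genes had 50 to 74 interactions, CDKAL1 had 31 to 49, and 4 to 7 joined SOX4 and CDKAL1. The 31 of CDKAL1 came with a contact count of at least 20, where SOX6 fell from 4 to 2. With distances up to 1 Mb, SOX5 fell from 3 to 1 and SOX6 from 4 to 2. The share of anchor bins with an HLF motif was 2.41% for the form with C alone, against 2.32% of all anchor bins. With up to 1 mismatch it was 98.8%, when 98.3% of all anchor bins hold a match. With gene bodies alone, SOX genes with an interaction fell from 11 to 6 and the interactions of SOX12 from 8 to 0. The median ratio to distance stayed between 0.96 and 1.02. Contact counts of about 20 have wide counting intervals, which limits any ranking of single interactions.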
